A study of Homo sapiens with 60 samples.

Results

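The transcriptional response of A549 cells to the high dose of a Zizyphi Semen extract was set against the response to its low dose. Of the 60 libraries in the series, 6 make up the comparison: 3 at 500 µg/mL and 3 at 20 µg/mL, taken by the extract and dose that their labels give. Libraries of the middle dose, 100 µg/mL (n = 3), entered the same fit, so that 9 libraries shared an estimate of the spread, and were used to place the response along the dose series.

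A549 is an established line from a human lung adenocarcinoma, and Zizyphi Semen is the dried jujube seed of East Asian medicine. All groups were A549 cells exposed for 24 h: to an ethanol extract of the seed at 500, 100 or 20 µg/mL, to other extracts, or to vehicle (n = 3). The vehicle is 0.1% DMSO by its labels and a higher share by the design text of the series, and for the extracts the labels record none. The Zizyphi Semen libraries carry the set number 10, which they share with Longan Arillus, whereas the vehicle libraries carry their own set number, C1; the high and the low dose therefore differ by dose within a set, and the labels do not say whether the 3 libraries of a dose were separate cultures, so the p-values rest on a spread among libraries that may be only technical.

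Several of the genes described below belong to known circuits. The orphan nuclear receptors of the NR4A family are induced within hours of a rise in cyclic AMP, through the transcription factor CREB and its CRTC coactivators, and PTGS2 (cyclooxygenase 2), which makes the precursor of prostaglandins, shares that input and answers to inflammatory signals as well. PDK4 inhibits the pyruvate dehydrogenase complex and so turns cells from glucose towards fatty acid oxidation; it is a target of PPAR and FOXO factors and is repressed by insulin signalling. AXIN2 and RNF43 are negative feedback genes of WNT signalling, and their mRNA is widely read as a measure of β-catenin activity.

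The 9 Zizyphi Semen libraries held 21044080 to 29665215 counts each, and the 60 libraries 18002661 to 33831747. Transcripts of mitochondrial genes made up 12.44 to 13.47% of counts at the high dose and 11.23 to 12.82% at the low dose. The A549 epithelial markers KRT8, KRT18, KRT7 and ALDH1A1 were abundant in each of the 9. Others on that list were lower: CDH1 had 30.7 to 37.2 CPM (counts scaled to library size), KRT19 23.1 to 31.5 CPM and EPCAM 3.85 to 5.63 CPM. SFTPC and NKX2-1, which alveolar type 2 cells express, were at or under 0.108 and 0.0434 CPM. Replicates of a dose differed by more than sampling noise in each pair (chi-square per degree of freedom 3.127 to 6.505), and none was merged with another.

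At 500 µg/mL, 189 of 16203 genes tested (1.17%) differed from 20 µg/mL at an adjusted p under 0.05 in edgeR's quasi-likelihood test with Benjamini-Hochberg adjustment. These are the genes termed called here: 66 were higher (0.407%) and 123 lower (0.759%) at the high dose. In all 66 and all 123, the high-dose libraries did not overlap with the low-dose ones, as in 3007 of the 16203 genes tested. Lack of overlap, given for single genes below, therefore adds nothing to a call. The changes were small. The median log2 fold change was 0.23 among the genes called higher and -0.29 among those called lower, and 4 genes higher (0.0247%) and 16 lower (0.0987%) changed by at least 1.5-fold. A change of at least 2-fold was found for 2 higher (0.0123%) and 2 lower (0.0123%). The count rested on every library: it was 45 to 97 when any 1 of the 6 was left out.

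**Figure D1:**
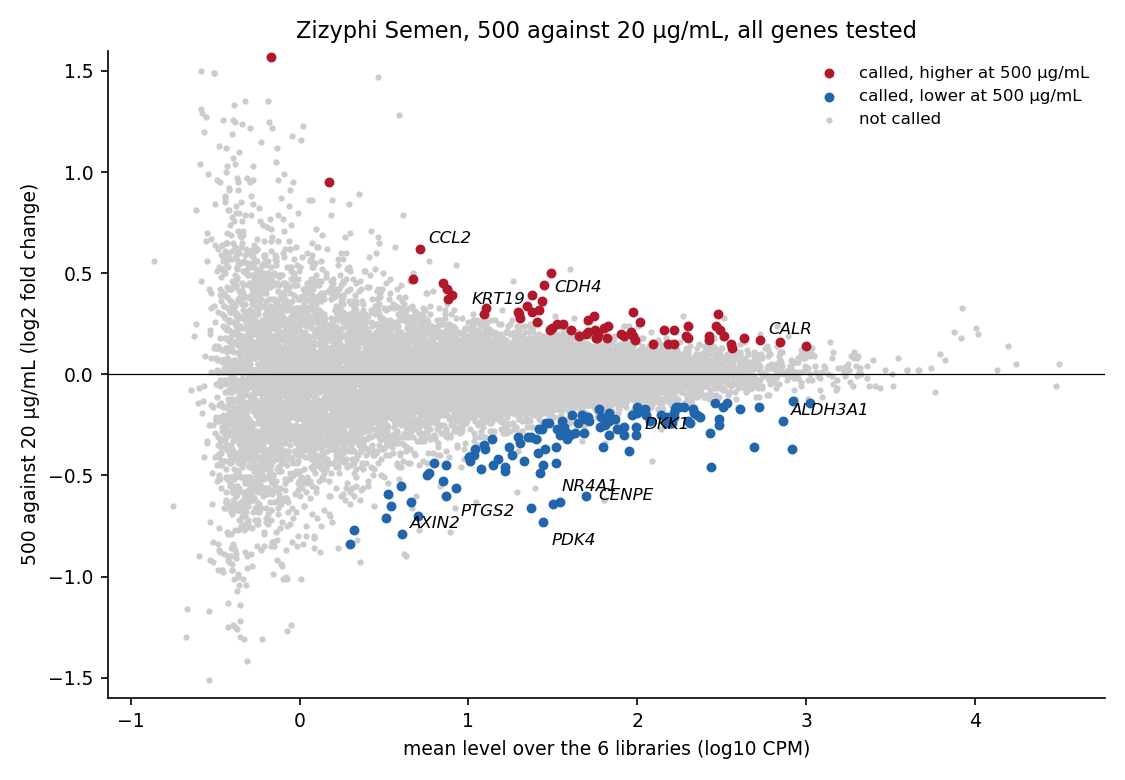
Mean level over the 6 libraries (log10 CPM, horizontal axis) and log2 fold change of 500 against 20 µg/mL (vertical axis) for the genes tested; red points were called higher and blue points lower at the high dose, and 18 genes, 3 of them called, lie beyond the plotted limit of 1.6; called genes lay at the edge of the cloud at every level, mostly under 1.5-fold, with PDK4, NR4A1 and PTGS2 among the falls (-0.73, -0.64 and -0.66).

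Among the changes with the smallest adjusted p were falls of NR4A1 and PDK4. NR4A1, which with CPLX2 had the smallest adjusted p of all genes, had 25.6, 24.7 and 24.4 CPM at 500 µg/mL, against 39.8, 38.0 and 38.4 CPM at 20 µg/mL (log2 fold change -0.64 ± 0.05 SE, adjusted p = 5.77e-07). PDK4 (chr7:95583499-95596491, GRCh38) had 20.2, 21.9 and 20.2 CPM at the high dose, against 35.9, 36.2 and 31.5 CPM at the low dose (-0.73 ± 0.07 SE, adjusted p = 7.39e-06). In both genes every high-dose library lay well below every low-dose library, and the 3 high-dose values were nearly level. PDK4 was the only named gene that kept its call in each of the 16 other fits made, among them the fit of all 54 replicated libraries.

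NR4A3, a close relative of NR4A1, had 6.27, 7.18 and 6.90 CPM at the high dose, against 10.3, 9.79 and 10.1 CPM at the low dose (-0.56 ± 0.10 SE, adjusted p = 0.00419). The remaining member, NR4A2, averaged 5.25 CPM at the high dose and 7.11 CPM at the low dose, with a log2 difference of -0.44 that was not called. Other immediate early genes, which share with the NR4A genes a rapid and transient induction, did not move with them. Of 21 tested, NR4A1 and NR4A3 were called and lower, none was called higher, and 10 had a positive log2 fold change; the list's median was -0.01, beside 0.00 over all genes tested. JUN averaged 30.8 CPM at the high dose and 24.2 CPM at the low dose, and FOS 4.35 and 5.26 CPM, without a call.

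PTGS2 had 20.4, 17.7 and 16.7 CPM at 500 µg/mL, against 32.7, 27.0 and 27.1 CPM at 20 µg/mL (-0.66 ± 0.09 SE, adjusted p = 0.00328). The low-dose libraries spread more than in NR4A1, yet their lowest value stood above the highest of the high dose. A list of 16 genes that CREB and CRTC are known to activate, written after these values had been seen, had 14 members tested. Of these, 5 were called and lower (NR4A1, NR4A3, PTGS2, INSL4 and CPS1) and none higher, with a median log2 fold change of -0.20. Over all genes tested, 0.407% were called higher and 0.759% lower, and the median was 0.00. As the values were known when the list was written, its count and median are not a test. The same holds for the other lists written after values were seen. INSL4, a placental insulin-like peptide that some lung cancers express, averaged 15.2 ± 0.36 CPM at the high dose and 19.4 ± 1.92 CPM at the low dose (SD, n = 3 each). CPS1, the first enzyme of the urea cycle, averaged 43.6 ± 1.25 CPM and 53.1 ± 2.85 CPM. Leaving out single libraries ended the call of INSL4 in 4 of 6 fits and that of CPS1 in 5 of 6. Of the 9 tested members without a call, NR4A2 and FOS differed most, by -0.44 and -0.27 on the log2 scale. AREG, CREM, PDE4B, SIK1 and PDE4D differed by -0.12, -0.10, -0.07, -0.07 and -0.02, and DUSP1 and TESC by 0.07 and 0.04.

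The 250 bases before the transcription start are printed for NR4A1, NR4A3 and PTGS2, which are on the list of CREB and CRTC targets, to show the element of that factor where it occurs, and for PDK4, which is not on it, as the gene whose call held in every fit; they are from RefSeq on GRCh38.p14, written 5′ to 3′ on the strand of the gene, with capitals on each match to TGACG, the core of the cyclic AMP response element, on either strand (read as CGTCA on the other strand). NR4A1 is at chr12:52022582-52022831, plus strand. NR4A3 is at chr9:99821635-99821884, plus strand. PTGS2 is at chr1:186680424-186680673, minus strand, and PDK4 at chr7:95596517-95596766, minus strand.
NR4A1: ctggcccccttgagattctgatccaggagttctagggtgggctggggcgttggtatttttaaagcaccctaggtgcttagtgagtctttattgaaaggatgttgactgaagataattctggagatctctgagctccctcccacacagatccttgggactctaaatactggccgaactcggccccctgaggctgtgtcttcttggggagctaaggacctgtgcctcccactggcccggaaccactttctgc
NR4A3: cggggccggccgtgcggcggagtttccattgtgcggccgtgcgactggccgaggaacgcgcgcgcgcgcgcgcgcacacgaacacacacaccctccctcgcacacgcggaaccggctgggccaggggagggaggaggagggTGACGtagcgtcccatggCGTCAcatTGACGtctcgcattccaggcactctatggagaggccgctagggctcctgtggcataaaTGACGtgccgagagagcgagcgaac
PTGS2: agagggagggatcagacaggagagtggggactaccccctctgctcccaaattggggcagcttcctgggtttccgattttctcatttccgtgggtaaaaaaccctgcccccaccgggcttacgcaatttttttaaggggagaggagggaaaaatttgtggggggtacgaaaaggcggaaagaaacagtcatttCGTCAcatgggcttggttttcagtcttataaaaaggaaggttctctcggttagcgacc
PDK4: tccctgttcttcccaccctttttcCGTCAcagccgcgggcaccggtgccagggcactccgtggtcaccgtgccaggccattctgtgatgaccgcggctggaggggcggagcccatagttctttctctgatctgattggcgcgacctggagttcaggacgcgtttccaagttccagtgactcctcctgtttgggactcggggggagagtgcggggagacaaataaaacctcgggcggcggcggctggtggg
NR4A3 held 4 matches, which began 109, 91, 83 and 25 bases before the start. PTGS2 held 1 that began 58 bases before it and a TATAAA that began 32 bases before it, and PDK4 held 1 at 226 bases. The window of NR4A1 held none. That window ends just before the first base of the annotated gene (chr12:52022832-52059507), and other possible starts of NR4A1 were not searched. In the full windows of 250 bases before to 50 after the start, TGACG was present in 3 of the 5 called members of the list (NR4A3, PTGS2 and INSL4), in 7 of the 12 tested members with a window, and in 25.0% of the 27305 promoters in the RefSeq table. The longer TGACGTNA was in none of the 5, and in 3.18% of all promoters. A match is a description of these letters and not a binding site.

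Within prostaglandin metabolism, enzymes moved in opposite directions. PLA2G4A, the cytosolic phospholipase that frees arachidonic acid from membranes, had 24.4, 24.8 and 21.3 CPM at the high dose, against 32.3, 33.1 and 31.0 CPM at the low dose (-0.45 ± 0.06 SE, adjusted p = 0.00122). PTGES, the inducible synthase that turns the product of PTGS2 into prostaglandin E2, had 22.6, 21.5 and 22.2 CPM, against 18.9, 17.3 and 17.6 CPM (0.30 ± 0.06 SE, adjusted p = 0.0214). PLA2G4A and PTGS2 were thus called lower and PTGES higher. The call of PTGES was lost in 5 of the 6 fits with a library left out. Of 12 tested members of the list, also written after values were seen, these 3 were called, and the median was -0.04. HPGD, which inactivates prostaglandins, averaged 62.4 CPM at the high dose and 62.6 CPM at the low dose.

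WNT feedback genes gave 3 falls and 1 rise among 11 tested members of a list written after values were seen (median -0.13). AXIN2 had 3.29, 2.22 and 3.35 CPM at the high dose, against 5.50, 5.44 and 4.31 CPM at the low dose (-0.79 ± 0.16 SE, adjusted p = 0.0188). RNF43, a ubiquitin ligase that removes WNT receptors, had 3.51, 3.48 and 4.48 CPM, against 6.67, 5.80 and 6.12 CPM (-0.70 ± 0.13 SE, adjusted p = 0.00987). Both are scarce transcripts whose groups did not overlap, and both calls were lost when single libraries were left out (5 of 6 libraries for AXIN2, 3 of 6 for RNF43). DKK1, a secreted WNT inhibitor, averaged 88.6 ± 4.04 CPM at the high dose and 109 ± 4.5 CPM at the low dose (-0.30 ± 0.05 SE, adjusted p = 0.00361). CCN4, the matricellular protein first known as a WNT-induced gene, rose: it had 2.11, 1.76 and 2.05 CPM at the high dose, against 1.29, 0.771 and 0.978 CPM (0.95 ± 0.22 SE, adjusted p = 0.0342), a call that DESeq2 and 5 of the 6 fits with a library left out did not make. ZNRF3, the partner of RNF43, and CCND1 and MYC, targets shared with many pathways, were not called, with log2 differences of -0.20, -0.09 and 0.13.

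**Figure D2:**
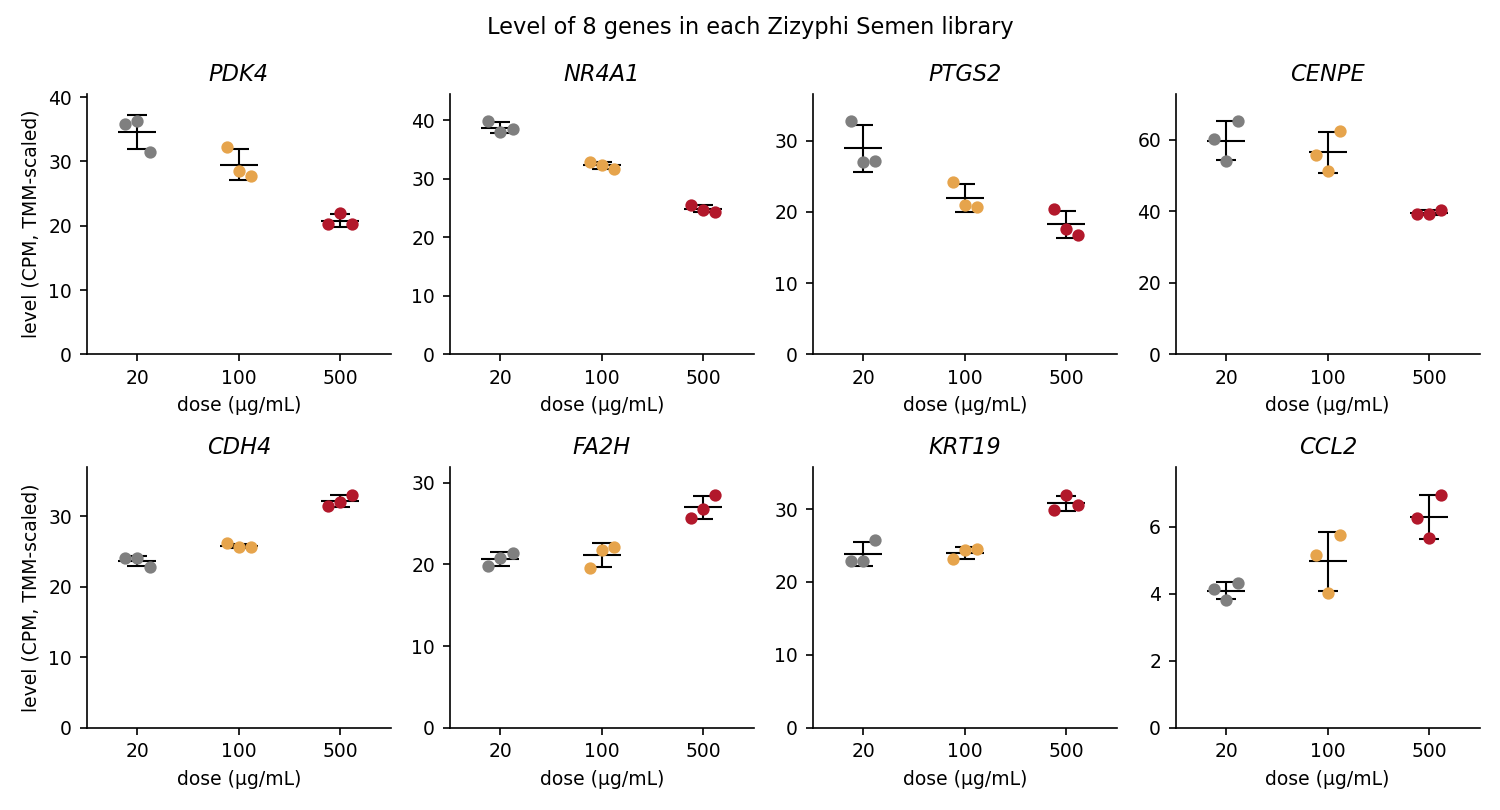
Level (CPM, scaled by TMM, vertical axes starting at 0) of 8 genes at 20, 100 and 500 µg/mL; points are libraries, and bars the mean ± SD (n = 3 per dose). PDK4, NR4A1, PTGS2 and CENPE were lower at 500 than at 20 µg/mL in every library, and CDH4, FA2H, KRT19 and CCL2 higher.

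Among genes that rose, CDH4, a classical cadherin, had 31.5, 32.1 and 33.1 CPM at 500 µg/mL, against 24.1, 24.1 and 22.9 CPM at 20 µg/mL (0.44 ± 0.05 SE, adjusted p = 1.53e-04). The groups were clear of each other, with every high-dose library above every low-dose library. From lists written after values were seen, ITGA3, an integrin subunit of epithelial cells, averaged 454 ± 7.39 CPM at the high dose and 401 ± 8.65 CPM at the low dose, and FERMT1, the kindlin that activates integrins in epithelia, 39.5 ± 1.08 and 33.2 ± 1.70 CPM (SD, n = 3 each). SERPINE2, a secreted inhibitor of serine proteases, averaged 62.7 ± 2.7 CPM at the high dose and 54.5 ± 0.43 CPM at the low dose. All 3 were called, but with a library left out the call of SERPINE2 was lost in each of 6 fits, that of FERMT1 in 5 and that of ITGA3 in 3.

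KRT19, a keratin of simple epithelia, had 29.9, 31.9 and 30.5 CPM at the high dose, against 22.9, 22.9 and 25.8 CPM at the low dose (0.36 ± 0.06 SE, adjusted p = 0.00361), while the far more abundant KRT8 and KRT18 were not called at -0.06 and -0.07. PPL (periplakin, of the cornified envelope), FA2H (fatty acid 2-hydroxylase) and MUC5AC (a gel-forming airway mucin) rose by 0.39, 0.39 and 0.19 on the log2 scale. In the other direction, CLDN2, which forms cation-selective pores in tight junctions, averaged 24.8 ± 1.48 CPM at the high dose and 32.1 ± 0.42 CPM at the low dose (-0.37 ± 0.06 SE, adjusted p = 0.00259). The list of keratins and junctions thus held 1 rise and 1 fall among 16 tested members (median 0.06). On the list of mucins and secretory epithelium, MUC5AC was the only call among 7 tested, with 3 positive and 4 negative (median -0.08). With a library left out, PPL lost its call in 6 of 6 fits and MUC5AC in 3. MUC5AC also lost its call when libraries were centred by transcript length, with an adjusted p of 0.319.

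On the list of NF-κB targets and inflammatory genes most values were positive, with few calls. CCL2, a chemokine that attracts monocytes, had 6.27, 5.65 and 6.95 CPM at 500 µg/mL, against 4.13, 3.81 and 4.31 CPM at 20 µg/mL (0.62 ± 0.13 SE, adjusted p = 0.0244). NFKB2 had 58.83, 54 and 55.52 CPM, against 49.5, 46.6 and 43.8 CPM (0.27 ± 0.05 SE, adjusted p = 0.0134), and TNIP1, which restrains the pathway, averaged 103 ± 2.43 and 91.2 ± 2.54 CPM (SD, n = 3 each). These 3 were called higher and none was called lower, where 0.407% of all genes tested were called higher. Of 19 tested members, 15 had a positive log2 fold change and 4 a negative one. The median was 0.15, beside 0.00 over all genes. RELB and BIRC3 differed by 0.27 and 0.26, and CXCL5 and CXCL1 by -0.08 and -0.01, all without a call. The call of CCL2 and that of TNIP1 was lost in each fit with a library left out, and that of NFKB2 in 3 of 6.

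Lipid and carbon metabolism changed at single genes. Beside PDK4, the list of PPAR targets and fatty acid oxidation (13 tested, median -0.01) held a fall of CYP4F3, an ω-hydroxylase of leukotrienes and fatty acids, at 33.4 ± 0.62 CPM at the high dose and 40.0 ± 2.38 CPM at the low dose, and a rise of ANGPTL4, a lipoprotein lipase inhibitor, at 27.7 ± 0.57 and 23.2 ± 0.30 CPM (SD, n = 3 each). SREBF1, a master regulator of fatty acid synthesis, averaged 203 ± 5.65 CPM at the high dose and 232 ± 9.29 CPM at the low dose (-0.19, adjusted p = 0.0249), and ACSL3, which activates fatty acids, fell by 0.17. In cholesterol synthesis, SQLE (squalene epoxidase) was the only one of 24 tested members called, higher by 0.15 on the log2 scale. Of the 24, 19 were positive (median 0.11). In 15 the high-dose libraries lay all above the low-dose ones, and in 0 all below. Over all genes tested, 3007 of 16203 were without overlap in either direction. ALDH3A1, an aldehyde dehydrogenase abundant in A549 and controlled by NRF2 and the aryl hydrocarbon receptor, had 685, 658 and 660 CPM at the high dose, against 790, 775 and 793 CPM at the low dose (-0.23 ± 0.03 SE, adjusted p = 9.51e-04). It was the only called member of both its lists, of 29 NRF2 targets and 6 AHR targets tested. CYP1A1 and CYP1B1, the classical AHR targets, differed by 0.36 and 0.24 without a call. With a library left out, the calls of SQLE and ANGPTL4 were lost in 6 of 6 fits and those of CYP4F3, SREBF1 and ACSL3 in 5, whereas ALDH3A1 kept its call in all 6.

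CENPE, the mitotic kinesin that carries chromosomes to the spindle equator, had 39.4, 39.1 and 40.3 CPM at the high dose, against 60.1, 54.1 and 65.1 CPM at the low dose (-0.60 ± 0.08 SE, adjusted p = 0.00338). Of 30 mitosis genes tested no other was called, the median was -0.03, and PLK1, TOP2A and CCNB1 differed by -0.01, 0.00 and 0.00. No gene of DNA replication was called among 32. Over all genes tested 1.17% were called. SUSD2, a membrane protein with a sushi domain, had 25.62, 29.03 and 27.57 CPM at the high dose, against 41.07, 43.98 and 42.2 CPM (-0.63 ± 0.06 SE, adjusted p = 4.15e-06). HMGN5, a nucleosome-binding protein, fell by 0.59 and CCDC78 by 0.55 on the log2 scale, both under 5 CPM at either dose. CDCP1, a membrane substrate of SRC kinases, rose by 0.42, GEM, a small GTPase that inhibits calcium channels, by 0.45, ZMAT4, a zinc finger protein, by 0.47, PLEK2 (pleckstrin 2) by 0.37, KIAA1549L by 0.34, PLEKHA2 by 0.33, HAS3, a hyaluronan synthase, by 0.32, and GFPT2, of the hexosamine pathway, by 0.31. These rises were less secure. With a library left out, CDCP1, ZMAT4, PLEK2, KIAA1549L and PLEKHA2 lost their call in 6 of 6 fits, GEM and GFPT2 in 5 and HAS3 in 4, and DESeq2 did not call CDCP1, GEM, ZMAT4, PLEK2 or PLEKHA2. HMGN5 and CCDC78 likewise lost their call in 6 of 6 fits and with DESeq2, while SUSD2 and CENPE kept theirs in all 6 fits and with DESeq2.

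Smaller changes completed the lists. ID2, an inhibitor of basic helix-loop-helix factors, averaged 105 ± 2.55 CPM at the high dose and 121 ± 4.36 CPM at the low dose, the only call among 11 ID and BMP feedback genes (median -0.13). Among YAP and TEAD targets (18 tested), ANKRD1 fell by 0.41 and the receptor kinase AXL rose by 0.18. TFRC (the transferrin receptor), the ER chaperone CALR (calreticulin), the p53 target TP53I3 and the mitophagy receptor BNIP3L rose by 0.17, 0.17, 0.20 and 0.18, and NOP58, a core protein of small nucleolar ribonucleoproteins, fell by 0.17. With a library left out, ANKRD1 and BNIP3L lost their call in 6 of 6 fits, ID2, TFRC, TP53I3 and NOP58 in 5, CALR in 3 and AXL in 1. No member was called in the lists of ATF4 targets (32 tested), tRNA synthetases (15), cytosolic heat shock proteins (20), interferon-stimulated genes (20) or lysosome and autophagy (24). The same held for proteasome (31), nuclear oxidative phosphorylation subunits (26), EGFR ligands and MAPK feedback (17), glucocorticoid receptor targets (9) and metallothioneins (5). It also held for circadian clock (15), PXR and CAR targets (4), retinoid metabolism (13) and solute transporters (14). Over all genes tested 1.17% were called, so the absence of a call in lists of this size says little.

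Messenger RNAs of the cytosolic ribosome and of the mitochondrial genome had positive values without a call: 30 of 32 ribosomal protein genes (median 0.08) and 13 of 13 mitochondrial mRNAs (median 0.11). For 15 of the 32 ribosomal protein genes the high-dose libraries all lay above the low-dose ones, and for 2 of the 13 mitochondrial mRNAs. They lay all below for 0 in both lists. Among all genes tested, 3007 of 16203 were without overlap, counting both directions together.

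**Figure D3:**
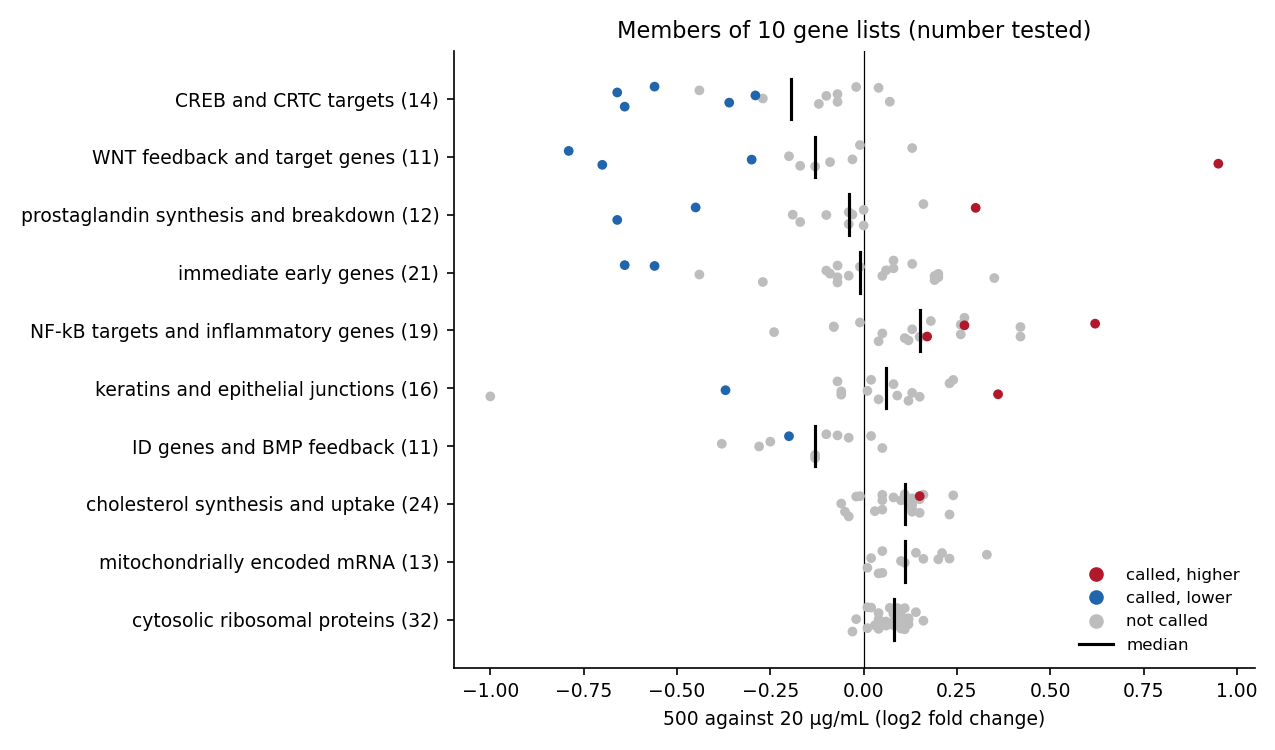
Log2 fold change of 500 against 20 µg/mL (horizontal axis) for the tested members of 10 gene lists, with the number tested in brackets; red and blue points were called higher and lower, grey points were not called, and the black line is the median of the list. The lists of CREB and CRTC targets, WNT feedback and prostaglandin metabolism were written after values were seen.

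Several genes with large falls are counted with uncertainty, because the strand setting of the counting is not given and the counting divides reads between overlapping transcripts. They are the antisense transcripts CTNS-AS1 (1.41 ± 0.18 CPM at the high dose and 2.56 ± 0.41 CPM at the low dose) and ASMTL-AS1 (1.55 ± 0.17 and 2.64 ± 0.07 CPM), the readthrough locus ATF7-NPFF (2.47 ± 0.37 and 4.02 ± 0.23 CPM), the long noncoding RNA LINC00173 (5.87 ± 0.30 and 8.95 ± 0.81 CPM) and the pseudogene ZDHHC8BP (5.81 ± 0.36 and 8.42 ± 1.17 CPM; SD, n = 3 each). With a library left out, ASMTL-AS1 lost its call in 6 of 6 fits, CTNS-AS1 in 5, ATF7-NPFF and ZDHHC8BP in 4 and LINC00173 in 1. Genes called higher and lower also differed in kind. All 66 called higher were protein coding, against 105 of the 123 called lower (85.4%), which held 11 long noncoding RNAs and 3 readthrough loci. Of all 16203 genes tested, 82.0% were protein coding, near the share among genes called lower. They held 1827 long noncoding RNAs and 73 readthrough loci. The median GC content of the longest transcript was 53.1% for genes called higher and 45.9% for genes called lower, beside 48.7% for all genes tested. The slope of a library's log2 deviation from the other libraries on GC content was 0.0448 to 0.0608 per 10 percentage points at the high dose and 0.0165 to 0.0617 at the low dose, which overlap. With libraries centred within 20 bins of GC content, 250 genes were called, 81 higher and 169 lower, and 56 of the 57 genes named kept their call; HMGN5 had an adjusted p of 0.0509.

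Among called genes, the mean at 100 µg/mL was between those at 500 and 20 µg/mL for 58 of 66 that were higher (87.9%) and 114 of 123 that were lower (92.7%), beside 40.1% of all genes tested; the same low- and high-dose libraries chose these genes, so the larger share is partly fixed by the choice. On the log2 scale the middle dose had covered a median of 28.9% of the low-to-high distance in genes called higher and 21.1% in genes called lower. Over all genes tested this median was 30.9%, so the called genes did not exceed it. PTGS2 and PLA2G4A had covered 59.7% and 62.6% at 100 µg/mL, NR4A1 41.0%, PDK4 31.1%, and CENPE and KRT19 14.1% and 2.3%. Tested directly, 100 against 20 µg/mL gave 0 calls (0.0% of 16203) with edgeR, where 511 genes had an unadjusted p under 0.05, and 3 with DESeq2. In contrast, 500 against 100 µg/mL gave 56 (0.346%), 21 higher and 35 lower, and this count was 3 to 122 with single libraries left out.

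Against vehicle, 4135 of 16510 genes were called at 500 µg/mL (25.0%) and 4953 at 20 µg/mL (30.0%). The vehicle libraries belong to another set, so extract and library set cannot be told apart in these values, whose CPM come from a scaling over 12 libraries for vehicle, and both comparisons share the vehicle libraries. For PDK4, PTGS2 and FA2H, chosen here after their values were seen, the low dose was close to vehicle. PDK4 averaged 20.8 CPM at 500 µg/mL, 34.5 CPM at 20 µg/mL and 32.6 CPM in vehicle; PTGS2 averaged 18.26, 28.92 and 28.99 CPM, and FA2H 27.0, 20.6 and 20.8 CPM in the same order. The high dose differed from vehicle in each of these (PDK4 -0.64, PTGS2 -0.66 and FA2H 0.39 on the log2 scale, adjusted p = 9.75e-07, 1.11e-04 and 6.24e-05), and the low dose in none (adjusted p = 0.322, 0.970 and 0.995). Other genes did not follow this order: LINC00173 averaged 5.87, 8.95 and 3.14 CPM, CTNS-AS1 1.41, 2.56 and 1.23 CPM, and TFRC 280, 249 and 323 CPM, so that for these the high dose was nearer to vehicle than the low dose.

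How far the response is particular to the seed extract was tested as the difference between its change at 500 against 20 µg/mL and that of 4 other extracts given at the same doses. Each of these brings its own high- and low-dose libraries. The difference from Longan Arillus, which is in the same library set, gave 0 calls among 16774 genes (0.0%), with 803 at an unadjusted p under 0.05 and 3 calls with DESeq2. One library of that extract, low dose replicate 3, stood apart in the slope of that deviation on transcript length (-0.5386, against -0.0756 to -0.0129 in the Zizyphi Semen libraries). Without it, 13 genes were called, among them PDK4 (-0.69, adjusted p = 0.00976), NFKB2 (0.45), FA2H (0.50) and KRT19 (0.50, adjusted p = 0.0379). In each of these the difference had the sign of the change in Zizyphi Semen. The contrast holds the same Zizyphi Semen libraries that chose these genes, so that sign is partly fixed.

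The difference was called for 43 of 16812 genes from Schisandrae Fructus (0.256%), 26 of 16668 from Liriopis seu Ophiopogonis Tuber (0.156%) and 52 of 16659 from Yijin-tang (0.312%); these extracts are in other library sets, and Yijin-tang is a water extract. Called differences were positive for 0.149% of genes and negative for 0.107% from Schisandrae Fructus, 0.042% and 0.114% from Liriopis seu Ophiopogonis Tuber, and 0.138% and 0.174% from Yijin-tang. On their own, 500 against 20 µg/mL gave calls for 1.06% of genes in Schisandrae Fructus, 0.006% in Liriopis seu Ophiopogonis Tuber and, in Yijin-tang, 0.528% higher and 0.642% lower. As with Longan Arillus, these contrasts hold the Zizyphi Semen libraries that chose the named genes. The sign and size of the differences of named genes are therefore partly fixed. The difference of PDK4 was called for all 3 extracts. Its log2 change was -0.73 in Zizyphi Semen, against -0.09, -0.08 and -0.18 in these extracts, and the differences were -0.64, -0.64 and -0.55 (adjusted p = 0.0460, 0.00127 and 0.00298). SUSD2 was likewise called in all 3, with -0.63 in Zizyphi Semen, against -0.26, -0.03 and -0.20. CDH4 rose by 0.44 in Zizyphi Semen, against 0.16, 0.05 and 0.03, and its differences from Liriopis seu Ophiopogonis Tuber (0.40) and Yijin-tang (0.42) were called. The NR4A genes behaved otherwise. NR4A1 changed by -0.64 in Zizyphi Semen, against -0.47 in Schisandrae Fructus, -0.26 in Liriopis seu Ophiopogonis Tuber and -0.71 in Yijin-tang, and only the difference from Liriopis seu Ophiopogonis Tuber was called (-0.38, adjusted p = 0.0148). NR4A3 had -0.56 in Zizyphi Semen, against -0.54, -0.16 and -0.87, with no difference called. CCL2 had 0.62 in Zizyphi Semen and 0.89 in Yijin-tang, again without a called difference.

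**Figure D4:**
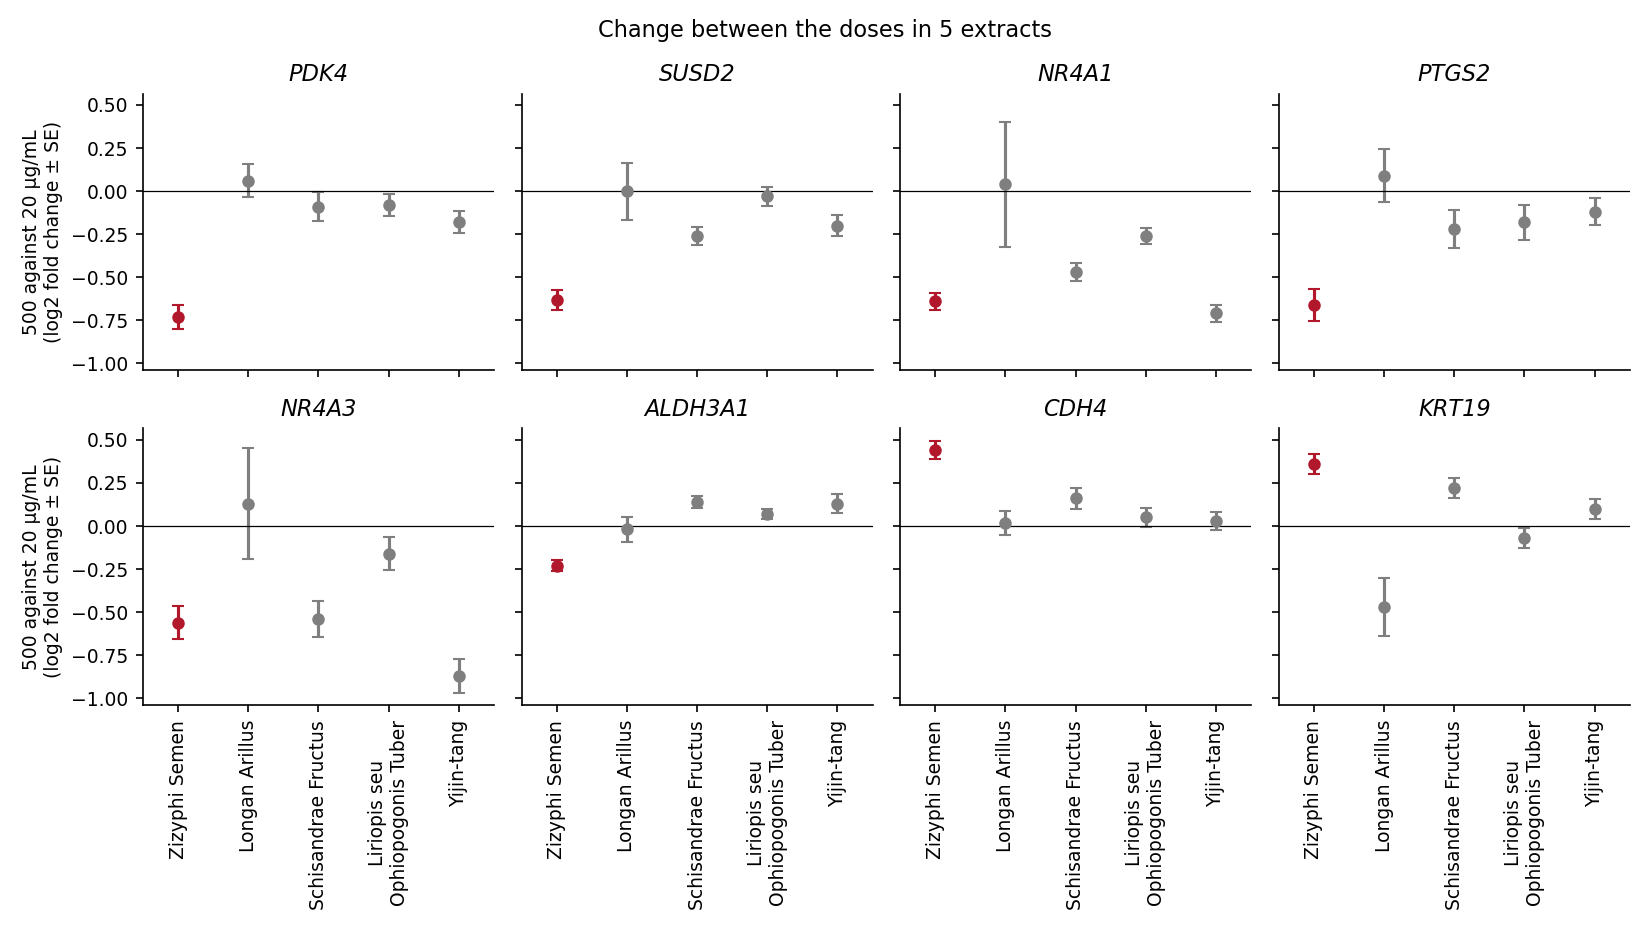
Log2 fold change of 500 against 20 µg/mL (vertical axis; point and SE) of 8 genes in Zizyphi Semen (red) and in 4 other extracts (grey; n = 3 libraries a dose in each). PDK4 and SUSD2 stood lowest in Zizyphi Semen, NR4A1 was low in 4 extracts, and the wide bars of Longan Arillus include a low-dose library that stands apart in transcript length.

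Markers of other cell types were read beside these results, and their part in them was not tested. The A549 epithelial markers summed to 18440 to 18750 CPM at the high dose and 19170 to 19670 CPM at the low dose, without overlap. Sums of other cell types differed without overlap for 3 of 5 lists: leukocyte, 21.39 to 22.26 CPM at the high dose and 16.86 to 19.54 CPM at the low dose; neural, 248.6 to 251.3 and 255.8 to 265.6 CPM; hepatocyte, 211.9 to 221.8 and 251.3 to 257.5 CPM. CD68 made up most of the leukocyte sum (16.7 to 18.4 CPM at the high dose and 13.0 to 14.9 CPM at the low dose), while CD3E, CD3D and MS4A1 were at 0 in all 9 libraries and PTPRC did not exceed 0.0849 CPM in the high- and low-dose libraries. FGB (fibrinogen β) carried the hepatocyte sum, with ALB at no more than 0.0377 CPM and APOB at 0 in the high- and low-dose libraries. SNAP25, SYT1 and TUBB3 carried the neural sum, with STMN2 and ELAVL4 at 0. Fibroblast and endothelial sums overlapped between doses.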

How the data were processed

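The authors deposited a table of RSEM expected counts per gene, not scaled for depth or gene length, for 60675 Ensembl identifiers; 10.485% of values were not whole. Reads were trimmed and checked with Trim Galore 0.6.5 and FastQC 0.11.9, aligned to hg38 with STAR 2.7.3a and counted with RSEM 1.3.3, per the submitters' processing notes. Libraries came from a directional kit, per the labels' protocols; no source used here gives the strand setting or annotation release. Symbols matched 41209 identifiers, and coordinates are from GENCODE 29.

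Expected counts were rounded to whole numbers and tested with edgeR 4.0.16 (quasi-likelihood F test with robust dispersion, TMM factors, filterByExpr by group; R 4.3.3) in the 9 Zizyphi Semen libraries, without a replicate block. Called means a Benjamini-Hochberg adjusted p below 0.05 over all genes tested. Vehicle comparisons used 12 libraries, and differences between extracts were interaction contrasts over 18. CPM are TMM-scaled, except for the cell type markers and their sums, which are scaled to total counts only. SE is the log2 fold change over the root of F. Genes of about 1 CPM have few counts and are less reliable.

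Named genes had no overlap between doses, a mean of at least 1 CPM and the 15 largest changes in each direction, or were up to 4 called members of each of 37 lists. Some of these genes are not reported here. The rule gave 49 genes; 8 more came from 5 lists added after values were seen, as were 3 of the 4 comparisons with other extracts and the search for TGACG. The members and lists were chosen with earlier results of these data known. A RefSeq promoter was found for 35 of the 57 named genes. On data simulated for high against low (16025 genes tested), 50 genes were changed at each fold. The test recovered 24 of those changed 1.2-fold (48%), 42 at 1.5-fold (84%), 45 at 2-fold (90%) and 50 at 4-fold (100%). It also made 21 false calls, a larger share of all its calls than the adjusted p threshold is meant to allow. Alternatives were DESeq2 (test and size factors), no filter, the replicate block, other sets of libraries, single libraries left out, a fold minimum, and centring within 20 bins of GC content or length.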

Additional observations from a re-analysis of the deposited data

Results flagged for a closer look

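Interaction tests between extracts called the dose difference of the named genes below as unlike that of another extract; all values are log2, Zizyphi Semen minus the other extract, and 3 libraries stood at each dose.

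Against Liriopis seu Ophiopogonis Tuber, the difference was negative for AXIN2 (-0.95), PDK4 (-0.64), SUSD2 (-0.60), NR4A1 (-0.38) and ALDH3A1 (-0.31). It was positive for CDH4 (0.40) and KRT19 (0.43).

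Against Schisandrae Fructus, it was negative for PDK4 (-0.64), ALDH3A1 (-0.38), PLA2G4A (-0.37), SUSD2 (-0.36) and CYP4F3 (-0.34). It was positive for ITGA3 (0.23), SQLE (0.23), SERPINE2 (0.30) and KIAA1549L (0.48). ALDH3A1 changed by -0.23 in Zizyphi Semen and by 0.14 in Schisandrae Fructus.

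Against Yijin-tang, it was negative for PDK4 (-0.55), PTGS2 (-0.54), SUSD2 (-0.42) and SREBF1 (-0.30), and positive for ITGA3 (0.25), ID2 (0.30), ANGPTL4 (0.39) and CDH4 (0.42). The value of ID2 is positive because it changed by -0.49 in Yijin-tang and by -0.20 in Zizyphi Semen. The part of the library sets, which differ between these extracts, was not tested. All these genes were named from the same Zizyphi Semen libraries that enter the contrasts, so these differences are partly fixed by that choice.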

How the results depend on the processing

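The count of genes called between 500 and 20 µg/mL moved most with the libraries in the fit: 5 (2 higher, 3 lower) over 54 replicated libraries, 1 (0 higher, 1 lower) over the 18 of set 10, 102 (42 and 60) over 17 of these without Longan Arillus low-dose replicate 3, and 316 (126 and 190) over the 6 alone. Without the filter it was 407 (149 and 258), and at 1.5-fold or more 20 (4 and 16). Leaving out a library gave 45 to 97 (12 to 31 higher, 33 to 75 lower). Whether replicate numbers pair the samples was not settled. Correlations of same-numbered high- and low-dose libraries were 0.04, 0.15 and 0.12, and those of unlike-numbered libraries ran from -0.16 to 0.05. Replicate 1 of the high dose correlated best with low-dose replicate 3 (0.05). The main fit used no replicate block, and a fit with the block gave 403 calls (160 and 243). DESeq2, its size factors, GC bins and length bins stayed within 1.5 times.

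For 100 against 20 µg/mL, no filter gave 32, the block 4, DESeq2 3 and a library left out 0 to 1. For 500 against 100 µg/mL these were 250, 226, 89 and 3 to 122. Against vehicle, leaving out a library gave 3051 to 3380 calls at the high dose and 3694 to 4381 at the low dose. For the difference from Longan Arillus, DESeq2 gave 3 and a library left out 0 to 13. For Schisandrae Fructus, no filter, the block, DESeq2 and a library left out gave 91, 70, 73 and 11 to 26; for Liriopis seu Ophiopogonis Tuber 179, 124, 73 and 7 to 56; for Yijin-tang, no filter gave 136, DESeq2 87 and a library left out 31 to 49. The causes were not tested.

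Between 500 and 20 µg/mL, no named gene changed sign in any of the 16 alternatives. With a library left out, 14 of the 57 kept their call each time and 16 lost it each time.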

Other observations

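Genes outside the naming rule, chosen after their values were seen, add the following. All 3 fibrinogen chains were called and lower: FGA averaged 168 CPM at 500 µg/mL and 188 CPM at 20 µg/mL, FGB 218 and 252 CPM, and FGG 129 and 147 CPM. The nuclear long noncoding RNA NEAT1 averaged 433 and 555 CPM, EIF5B, a translation initiation factor, 231 and 318 CPM, CPLX2 (complexin 2, of vesicle fusion) 723 and 934 CPM, and BMP6 12.8 and 17.2 CPM, all called. SMAD3, a TGF-β signal transducer, averaged 380 and 348 CPM, LOXL2, a collagen cross-linking enzyme, 216 and 182 CPM, and KLF7 61.1 and 49.9 CPM, called and higher.

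The 4 largest fold changes lay in genes with few reads. The readthrough locus ZNF625-ZNF20 had 0 counts in each high-dose library, against 8, 12 and 13 at the low dose and 12, 7 and 9 at the middle dose. HOXC5 had 19, 22 and 33 counts at the high dose, against 5, 8 and 12 at the low dose. The other 2 have no official symbol. How the reads of such overlapping loci were shared was not tested.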
